A study of Mus musculus with 30 samples.

Results

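Markers of macrophages and of antigen presentation were followed in mouse liver: Clec4f, Cd5l, Vsig4, Adgre1, Csf1r, C1qa, Cd74, H2-Aa, H2-Ab1 and H2-Eb1. They were chosen by name, as the genes that report on the content of Kupffer cells and of cells carrying MHC class II, and all 10 were found among the 14173 genes of the count table. Livers came from 30 male C57BL6/J mice, 6 for each of 5 diets, and each mouse gave 1 library of 3′ end mRNA reads. Cas-20% was the casein control, with methionine at 0.57 and cysteine at 0.41 g per 100 g of diet. Cas-5% was casein restricted to 5%, with methionine at 0.15 and cysteine at 0.1 g per 100 g. Soy-20% held 20% soy protein, with methionine and cysteine at 0.22 g per 100 g each. Soy-20% + SAA was the same diet with methionine and cysteine added to 0.58 and 0.41 g per 100 g, close to Cas-20%. Soy-10% held 11.5% soy protein by the sample labels, with methionine and cysteine at 0.13 g per 100 g each. All mice arrived at 9 weeks of age, took a control diet of their own protein source for 2 weeks, ate the test diet for 12 weeks from 12 weeks of age and were killed after a 4 h fast, at an age labelled as 6 months.

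Kupffer cells are the resident macrophages of the liver. They line the sinusoids, where they take up particles, complement-coated material and aged red cells, and they depend on signalling through the CSF1 receptor. Peptides from engulfed proteins are shown to CD4 T cells on MHC class II molecules, which macrophages share with dendritic cells and B cells. Assembly of class II needs the invariant chain, and transcription of its genes needs the transactivator CIITA together with RFX and NF-Y, which bind the promoters. Whole liver is mostly hepatocyte RNA, so a marker that fell in these libraries could mean fewer cells of a type or less RNA per cell, and bulk counts cannot tell these apart.

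The 10 genes were placed on the mouse genome build GRCm38 by the coordinates in the table, which matched GENCODE M21, and all are protein coding. Clec4f (ENSMUSG00000014542, chr6:83644542-83656187, minus strand) codes for a galactose-binding lectin that in mice is made by Kupffer cells. Cd5l (ENSMUSG00000015854, chr3:87357881-87371073, plus strand) codes for a secreted scavenger receptor protein of tissue macrophages. Vsig4 (ENSMUSG00000044206, chrX:96247203-96293438, minus strand) codes for a complement receptor for C3 fragments. Adgre1 (ENSMUSG00000004730, chr17:57358691-57483527, plus strand) codes for F4/80, the surface protein by which mouse macrophages are usually sorted. Csf1r (ENSMUSG00000024621, chr18:61100598-61132149, plus strand) codes for the receptor for CSF1 and IL34, and C1qa (ENSMUSG00000036887, chr4:136895917-136898803, minus strand) for the A chain of complement C1q. Cd74 (ENSMUSG00000024610, chr18:60803848-60812652, plus strand) codes for the class II invariant chain. H2-Ab1 (ENSMUSG00000073421, chr17:34257689-34269419, plus strand) and H2-Aa (ENSMUSG00000036594, chr17:34282744-34287823, minus strand) code for the beta and alpha chains of the class II molecule I-A, and H2-Eb1 (ENSMUSG00000060586, chr17:34305867-34316674, plus strand) for the beta chain of I-E. C57BL/6 mice carry a defective gene for the I-E alpha chain, so H2-Eb1 reports on class II transcription rather than on an I-E surface molecule.

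Depth was between 7694015 and 14565542 counts per liver, with a median of 10803734, and single member counts ran from 71 (Adgre1) to 2282 (H2-Aa) reads, so all 10 genes passed the filter on low counts in each comparison. No replicate pair among 75 looked like a library deposited again. Livers 3 to 6 of Soy-20% + SAA stood apart in base composition. Their counts rose with the GC content of a gene's last 200 bases by 0.055, 0.174, 0.168 and 0.193 on the log2 scale for each 10 percentage points, against -0.057 to 0.024 in the other 26 livers. The members' own end sequences ran from 34.5% GC (Adgre1) to 60.5% (C1qa), with H2-Eb1 at 44.5% and Cd74 at 54.5%, so results against Soy-20% + SAA are given with and without those 4 livers. Values below are counts divided by the authors' size factors, called normalized counts.

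Promoter sequence is given for members that varied together between livers, since the class II genes are classically read from a shared promoter layout. RefSeq sequence was at hand for 5 of the 10 members. The 160 bases before the annotated start site (build GRCm38.p6, each read 5′ to 3′ on the gene's own strand) are printed for 4 of them, H2-Aa at chr17:34287824-34287983 (minus strand), H2-Eb1 at chr17:34305707-34305866 (plus strand), Vsig4 at chrX:96293439-96293598 (minus strand) and Cd5l at chr3:87357721-87357880 (plus strand). Capitals mark the core of the Y box bound by NF-Y (CCAAT, or ATTGG on the other strand) and the core of the site for PU.1, the macrophage lineage factor (GAGGAA, or TTCCTC on the other strand).
H2-Aa: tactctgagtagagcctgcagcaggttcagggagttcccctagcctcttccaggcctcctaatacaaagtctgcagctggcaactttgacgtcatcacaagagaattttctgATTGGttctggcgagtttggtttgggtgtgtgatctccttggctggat
H2-Eb1: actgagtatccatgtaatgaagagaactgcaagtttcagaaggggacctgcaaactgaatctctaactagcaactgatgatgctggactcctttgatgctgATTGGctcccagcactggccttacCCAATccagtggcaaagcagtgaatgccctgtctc
Vsig4: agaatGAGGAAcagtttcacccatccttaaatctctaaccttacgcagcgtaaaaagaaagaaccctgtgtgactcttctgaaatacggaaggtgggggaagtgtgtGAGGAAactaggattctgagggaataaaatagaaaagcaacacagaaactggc
Cd5l: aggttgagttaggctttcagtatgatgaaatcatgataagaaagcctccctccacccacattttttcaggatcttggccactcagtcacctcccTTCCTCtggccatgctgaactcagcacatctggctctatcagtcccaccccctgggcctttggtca
Both class II promoters held the Y box core on the reverse strand, with its first base 48 bases upstream of the start site in H2-Aa and 59 in H2-Eb1, and H2-Eb1 held a second, forward copy 35 bases upstream. Neither held the PU.1 core. Vsig4 held the PU.1 core at 155 and 53 bases upstream and Cd5l at 66, and neither of these held the Y box core. Clec4f, whose RefSeq start lies inside the gene model of the table and which is therefore not printed, held the Y box core at 72 bases upstream. The 2 cores do not overlap, and both are common: in windows of 300 bases around the start site the Y box core occurred in 37.4% and the PU.1 core in 28.1% of 32544 promoters. The matches describe these letters and not sites shown to be bound.

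Of the 3 Kupffer cell genes, Clec4f and Vsig4 differed little between diet means and Cd5l differed more. Clec4f had a mean of 512 ± 59.6 normalized counts (SD, n = 6) in Cas-20%, 503 ± 88.7 in Cas-5%, 461 ± 93.2 in Soy-20%, 511 ± 55.6 in Soy-20% + SAA and 464 ± 12.5 in Soy-10%, and the highest mean was 1.11 times the lowest. By liver, Clec4f ran from 423 to 569 with a median of 542 in Cas-20%, from 384 to 627 with a median of 498 in Cas-5%, from 306 to 565 with a median of 480 in Soy-20%, from 442 to 594 with a median of 496 in Soy-20% + SAA, and from 451 to 483 with a median of 464 in Soy-10%. Every range took in the whole range of the Soy-10% livers, which were the most alike. Vsig4 means lay between 370 ± 57.5 in Soy-20% and 417 ± 74.9 in Cas-5%, a ratio of 1.13. Cd5l means lay between 1019 ± 182 in Cas-5% and 1283 ± 340 in Soy-10%, a ratio of 1.26, and its livers ran from 542 to 1931.

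Of the 3 wider macrophage genes, Adgre1 differed most between diet means. Adgre1 ran from 123 to 227 with a median of 142 in Cas-20%, from 132 to 193 with a median of 162 in Cas-5%, from 71.4 to 203 with a median of 144 in Soy-20%, from 93.9 to 130 with a median of 116 in Soy-20% + SAA, and from 123 to 312.5 with a median of 152 in Soy-10%. Soy-20% + SAA was the lowest and least spread diet, and its upper end still overlapped the lower end of each of the others except Cas-5%, whose lowest liver lay just above it. Diet means of Adgre1 were 165 ± 46.1, 164 ± 23.7, 144 ± 46.1, 115 ± 12.7 and 172 ± 71.2 normalized counts in the same order, a ratio of 1.49 between highest and lowest. Csf1r means ran from 593 ± 134 in Cas-20% to 663 ± 117 in Soy-20% + SAA, a ratio of 1.12. C1qa means ran from 466 ± 123 in Cas-20% to 535 ± 73.7 in Soy-10%, a ratio of 1.15.

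The 4 class II genes kept almost the same order of diet means. At the bottom were the 2 protein-restricted diets, which were also the lowest in methionine. These genes varied together between livers, so their shared order is not 4 independent observations. Cd74, H2-Aa, H2-Ab1 and H2-Eb1 each had their lowest mean in Soy-10%, their next lowest in Cas-5% and their middle mean in Soy-20%, and their highest in Cas-20% or, for H2-Ab1, in Soy-20% + SAA. By median the 2 restricted diets were again lowest, but the upper order differed. For H2-Aa the median was 1072 in Cas-20%, 1087 in Soy-20% and 1176 in Soy-20% + SAA. Cas-20% was also below both for Cd74 and, narrowly, H2-Ab1, and above both for H2-Eb1. H2-Eb1 ran from 334 to 1461 with a median of 663 in Cas-20%, from 357 to 732 with a median of 532 in Cas-5%, from 330 to 965 with a median of 629 in Soy-20%, from 535 to 1100.0 with a median of 645 in Soy-20% + SAA, and from 253 to 795 with a median of 450 in Soy-10%. The ranges of all 5 diets overlapped, and the widest, in Cas-20%, spanned 4.37 times. Cd74 ran from 280.2 to 1080.0 with a median of 455 in Cas-20%, from 285 to 688 with a median of 426 in Cas-5%, from 259 to 690 with a median of 552 in Soy-20%, from 413 to 692 with a median of 544 in Soy-20% + SAA, and from 257 to 649 with a median of 350.4 in Soy-10%. Means of H2-Aa ran from 959 ± 369 in Soy-10% to 1219 ± 614 in Cas-20%, and those of H2-Ab1 from 561 ± 235 in Soy-10% to 767 ± 190 in Soy-20% + SAA. The ratio of highest to lowest mean was 1.27 for H2-Aa, 1.34 for Cd74, 1.37 for H2-Ab1 and 1.57 for H2-Eb1. No member was called in any of the 7 pairs of diets tested.

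**Figure D1:**
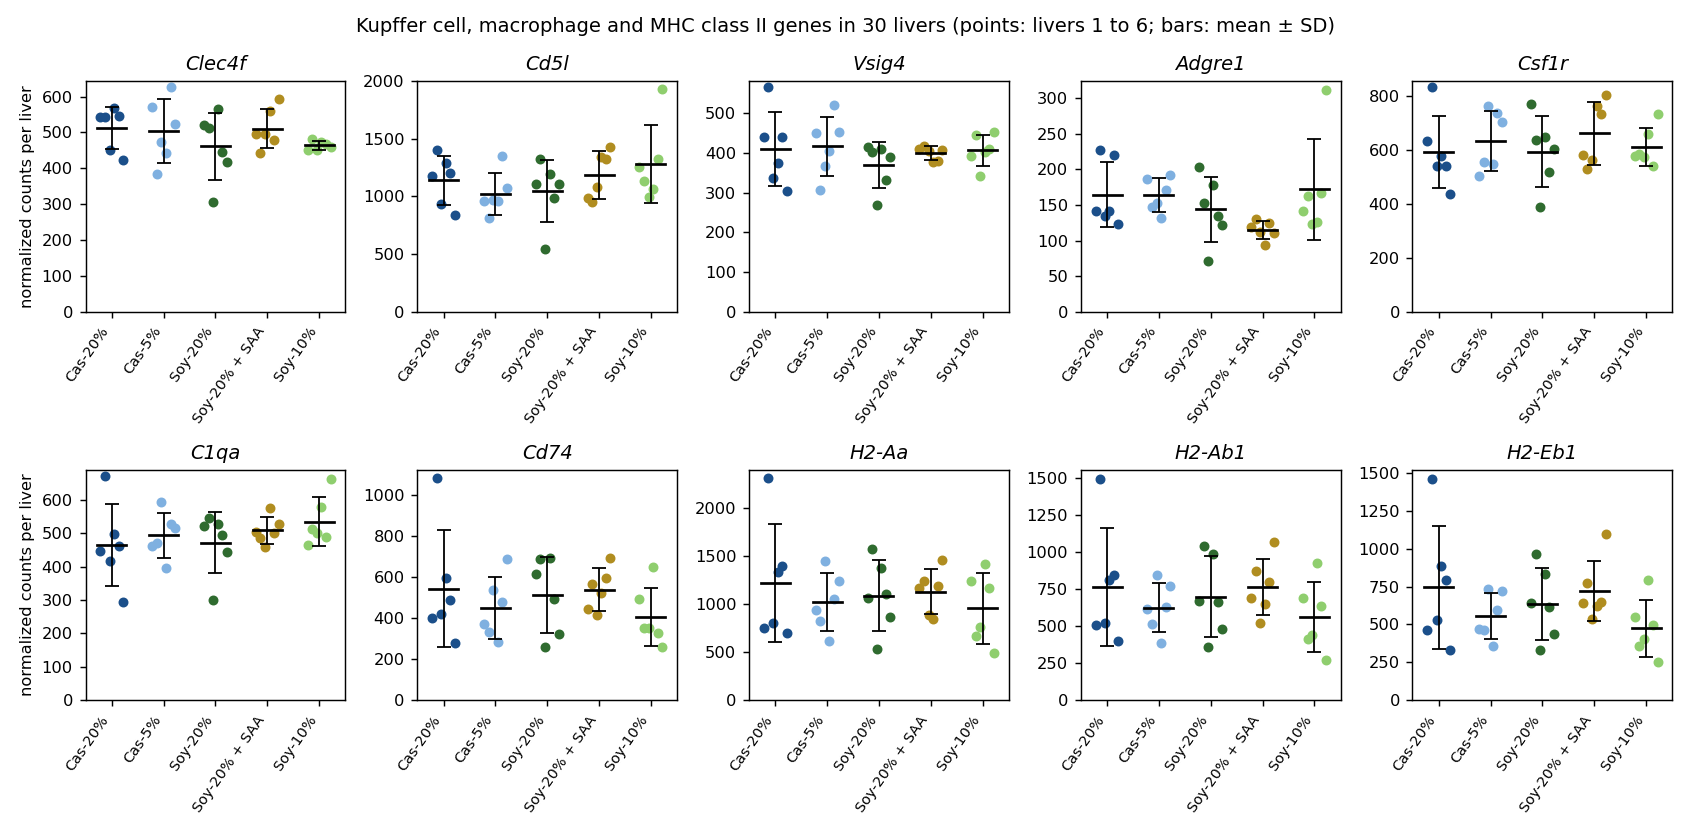
Normalized counts of the 10 members in each liver (vertical axis of each panel, from 0), by diet (horizontal axis), with 1 point per liver and bars for the diet mean and SD. The livers of all 5 diets overlap for Clec4f, while H2-Eb1 runs over a wide range within each diet and has its lowest mean, 476, in Soy-10%.

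Over all 5 diets no member passed the test. edgeR's quasi-likelihood F test on 30 livers, with Benjamini-Hochberg adjustment over 12561 genes, called 43.4% of all genes at an adjusted p of 0.05 or less and 0 of the 10 members. The smallest adjusted p among them was 0.112, for Adgre1, and 0 members had an unadjusted p under 0.05, where 52.3% of all genes did. The count stayed at 0 without livers 3 to 6 of Soy-20% + SAA.

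Casein restriction, Cas-5% against Cas-20%, asks what restricting casein and with it methionine does to the liver. It called 24.9% of 12076 genes and 0 of the 10 members, and 0 members had an unadjusted p under 0.05 against 36.6% of all genes. Clec4f differed by -0.01 (log2 fold change, SE 0.11) with a 95% interval from -0.24 to 0.23, so the interval of its fold ran from 0.845 to 1.17. Vsig4 differed by 0.04 (SE 0.14), Cd5l by -0.15 (SE 0.13), Adgre1 by 0.01 (SE 0.16), Csf1r by 0.11 (SE 0.14) and C1qa by 0.10 (SE 0.15), and the intervals of these 5 together lay between -0.42 and 0.41. All 4 class II genes had lower means in Cas-5%, with wider intervals. H2-Eb1 differed by -0.41 (SE 0.28, interval -1.003 to 0.185, adjusted p = 0.317), H2-Ab1 by -0.27 (SE 0.26), Cd74 by -0.26 (SE 0.27) and H2-Aa by -0.24 (SE 0.26). A single control liver carried much of this, since without Cas-20% liver 2 the differences of Cd74, H2-Aa and H2-Ab1 were 0.05, 0.04 and 0.03 and that of H2-Eb1 was -0.11. With the GC slope of each library as a covariate Cd74, H2-Aa and H2-Ab1 differed by 0.17, 0.10 and 0.08. The median difference of all genes tested was 0.02.

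Soy restriction, Soy-10% against Soy-20% + SAA, asks the same with soy as the protein source. It called 17.0% of 11983 genes and again 0 of the 10 members, while 3 members had an unadjusted p under 0.05 against 33.9% of all genes. Adgre1 was 1.49 times as high in Soy-10% (log2 fold change 0.58, SE 0.20, interval 0.154 to 1.003, adjusted p = 0.0577). H2-Eb1 was 0.657 times as high (-0.61, SE 0.23, interval -1.103 to -0.109, adjusted p = 0.0832) and Cd74 0.748 times (-0.42, SE 0.19, interval -0.83 to -0.01, adjusted p = 0.143). H2-Ab1 differed by -0.46 (SE 0.25) and H2-Aa by -0.24 (SE 0.23), neither past an unadjusted p of 0.05. The Kupffer cell genes were bounded more tightly: Vsig4 differed by 0.02 (SE 0.07, interval -0.13 to 0.18), Clec4f by -0.14 (SE 0.07, interval -0.30 to 0.02) and Cd5l by 0.11 (SE 0.15, interval -0.22 to 0.44). C1qa differed by 0.07 (SE 0.09) and Csf1r by -0.12 (SE 0.11). The call on Adgre1 lay at the threshold, with an adjusted p of 0.033 by DESeq2 and 0.0397 in a single fit of all 30 livers. Without livers 3 to 6 of Soy-20% + SAA its difference was 0.46 (adjusted p = 0.493), that of H2-Eb1 -0.58 (0.34) and that of Cd74 -0.32 (0.584), with only 2 control livers left. Single livers also moved these values. Without Soy-10% liver 6 the difference of Adgre1 was 0.32 (adjusted p = 0.0782), the smallest over 12 single omissions. Adgre1 was called without Soy-20% + SAA liver 2 (adjusted p = 0.0495), Soy-10% liver 3 (0.047) or Soy-10% liver 4 (0.0463), and without the last Cd74 (-0.60, adjusted p = 0.0278) and H2-Eb1 (-0.81, 0.0228) were called too.

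The other pairs of diets tested called no member either. Soy-10% against Soy-20% called 0.866% of all genes, Soy-20% against Soy-20% + SAA 0.00838%, Cas-20% against Soy-20% + SAA 2.43%, Cas-20% against Soy-20% 2.69% and Cas-5% against Soy-10% 10.7%, and each called 0 of the 10 members. Adgre1 was higher in Cas-20% than in Soy-20% + SAA by 0.52 (log2, SE 0.16, adjusted p = 0.0751), which DESeq2 called (adjusted p = 0.0355) and which was 0.40 (adjusted p = 0.778) without livers 3 to 6. Cd5l was lower in Cas-5% than in Soy-10% by 0.31 on the log2 scale, a difference of -0.31 with SE 0.14 (adjusted p = 0.176), and by -0.16 (adjusted p = 0.42) without Soy-10% liver 6. Between Soy-10% and Soy-20% the difference of Adgre1 was 0.26 (SE 0.24, adjusted p = 0.729). There H2-Eb1 differed by -0.43 (SE 0.26, adjusted p = 0.55) and Cd74 by -0.34 (SE 0.24, adjusted p = 0.634). Between Soy-20% and Soy-20% + SAA Adgre1 differed by 0.33 (SE 0.19, adjusted p = 0.302). These comparisons share diets with those above, so their values are not independent of them. The casein effect minus the soy effect, tested in 24 livers as an interaction, called 8.69% of all genes and 0 members, with Adgre1 at -0.58 (SE 0.27, adjusted p = 0.171). Without Soy-10% liver 6 this Adgre1 value was -0.32 (adjusted p = 0.358), and without livers 3 to 6 of Soy-20% + SAA it was -0.46 (adjusted p = 0.569).

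**Figure D2:**
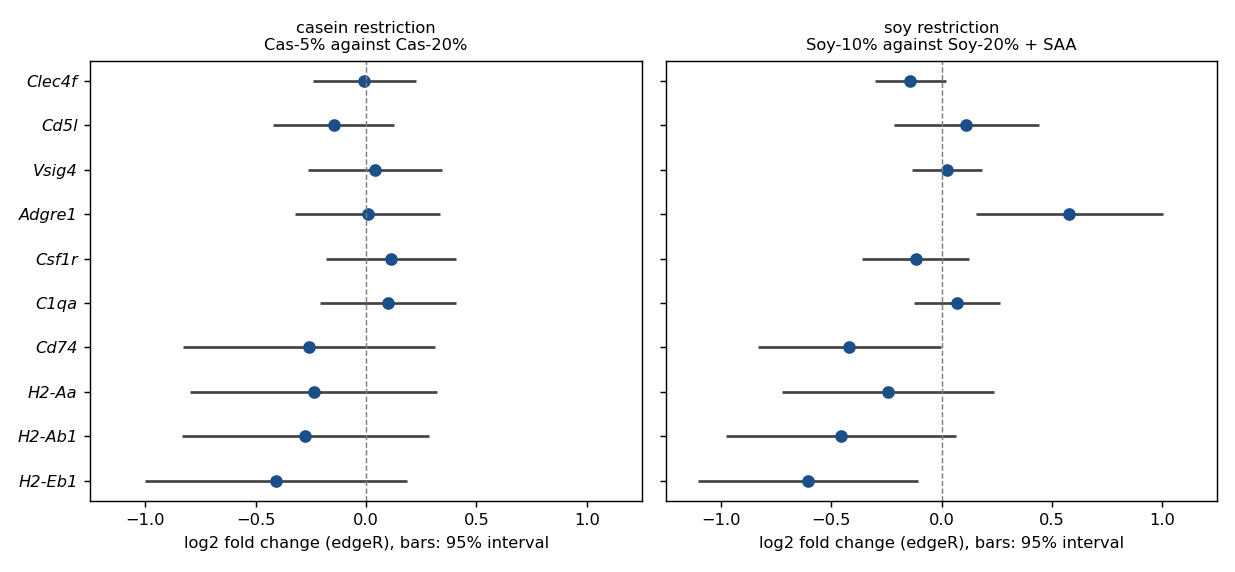
Log2 fold changes (horizontal axis) of the 10 members under casein restriction and soy restriction, each with its 95% interval and a line at 0. The intervals of Clec4f and Vsig4 hold 0 in both and are shorter than those of the class II genes. The 4 class II genes lie to the left with wide intervals, H2-Eb1 furthest at -0.41 and -0.61.

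All 10 members varied more between livers of one diet than the median gene. Over 6918 genes with a mean of at least 100 counts, the median SD of log2 values around the diet mean was 0.166. Clec4f (0.209) and Vsig4 (0.223) were the steadiest members, with C1qa at 0.253, Csf1r at 0.261, Cd5l at 0.321 and Adgre1 at 0.381. The class II genes were far more variable, at 0.502 for Cd74, 0.523 for H2-Aa and 0.544 for both H2-Ab1 and H2-Eb1, and only 2.52% of genes or fewer had a larger SD than any of these 4.

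Single livers were high or low for the whole set. Cas-20% liver 6 and Soy-20% liver 3 had the lowest value of their diet for all 10 members, and Cas-20% liver 2 had the highest for 9 of 10. Averaged over the 6 macrophage genes (Clec4f, Cd5l, Vsig4, Adgre1, Csf1r and C1qa), Soy-20% liver 3 lay 0.643 below its diet mean on the log2 scale, a deviation of -0.643, and averaged over the 4 class II genes -0.862. Cas-20% liver 2 deviated by 0.32 and 1.011. In 25 of 30 livers all 4 class II genes lay on one side of the diet mean, and in 12 of 30 all 6 macrophage genes did. In 9 of 30 livers the class II and macrophage averages pointed opposite ways, and Soy-10% liver 6 was the clearest of these. There Cd5l was 1931, Adgre1 312.5, C1qa 664, Csf1r 734.2 and Vsig4 452.1 normalized counts, each the highest of its diet, while Clec4f, at 458.8, lay below its diet mean of 464.2. H2-Aa was 491.1, H2-Ab1 268.8, H2-Eb1 252.7 and Cd74 257.4, each the lowest. Its averages were 0.396 for the macrophage genes and -0.787 for class II. Soy-10% liver 4 was high in class II, at 0.753, while its macrophage average lay near the diet mean, at -0.073, with 3 of the 6 genes above it.

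**Figure D3:**
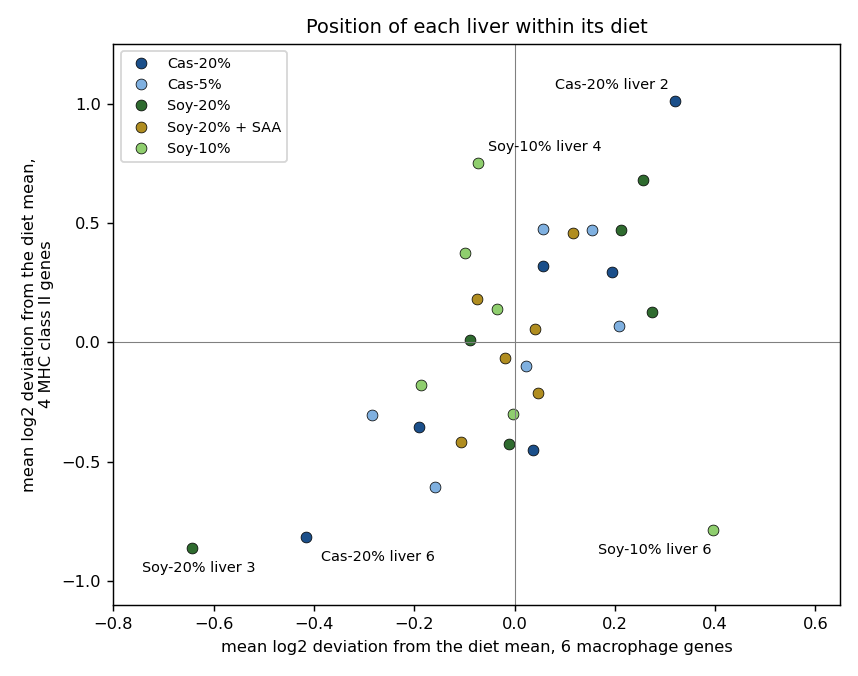
Each of the 30 livers by its mean log2 deviation from its diet mean over the 6 macrophage genes (horizontal axis) and over the 4 class II genes (vertical axis), coloured by diet. Soy-20% liver 3 and Cas-20% liver 6 sit low on both, Cas-20% liver 2 high on both, and Soy-10% liver 6 furthest into the lower right at 0.396 and -0.787.

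Across the 30 livers the members formed 2 groups by likeness. Values were log2 CPM (counts scaled to library size) centred on each diet mean, and p-values came from 100000 permutations of livers within diets, adjusted over all 45 pairs. The 6 class II pairs had Pearson r from 0.883 to 0.979 and Spearman rho from 0.841 to 0.968 (adjusted permutation p = 5.6e-05 each, from a raw p of 1e-05, the smallest these permutations can give). Without the 2 livers farthest from the median r stayed between 0.841 and 0.974. The 15 pairs among macrophage genes had r from 0.538 to 0.835 and rho from 0.409 to 0.816, with all 15 past an adjusted permutation p of 0.05 (largest 0.0073) and r from 0.362 to 0.76 without the 2 farthest livers. The 24 pairs between the groups had r from 0.282 (Adgre1 with H2-Ab1, adjusted permutation p = 0.21) to 0.706 (C1qa with Cd74). Their median r was 0.475, against 0.704 within the macrophage genes. Their rho ran from 0.343 to 0.649, their r without the farthest livers from 0.269 to 0.585, and 17 of 24 passed the threshold. These r overlapped those within the macrophage genes, where C1qa with Clec4f had 0.63. Csf1r likewise had a higher r with Cd74 (0.662) than with Clec4f (0.61), so the r did not follow the named groups throughout. Whether the 2 groups of r differ was not tested. All members were read from the same libraries, so depth and the composition of a tissue piece are common to every pair.

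**Figure D4:**
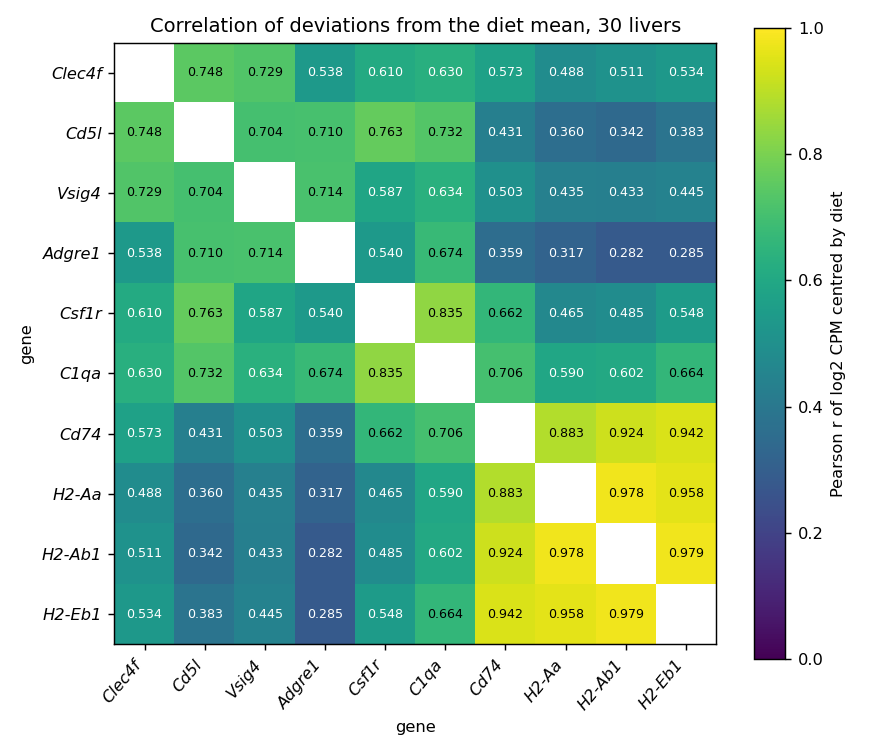
Pearson r between every pair of the 10 members over 30 livers, from log2 CPM centred on the diet means, shown by colour and number. The block of 4 class II genes runs from 0.883 to 0.979 and the block of 6 macrophage genes from 0.538 to 0.835. Values between the blocks run from 0.282 to 0.706 and overlap those of the macrophage block.

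Among 12033 genes, those most like Clec4f outside the 10 members were Ctss (r = 0.79), the lysosomal protease cathepsin S, Ccl6 (0.759), a macrophage chemokine, Folr2 (0.723), a folate receptor of resident macrophages, Tyrobp (0.723), an adaptor of myeloid receptors, and Hk2 (0.72), a hexokinase. Those most like H2-Ab1 were H2-DMb1 (0.878) and H2-DMa (0.833), the chains of the peptide exchange factor H2-DM, Psmb8 (0.852), an immunoproteasome subunit, Cxcl9 (0.784), an interferon-induced chemokine, and Clec1b (0.78), a lectin found on Kupffer cells. Both sets of r are over 30 livers and are descriptive. Over the 26 livers without Soy-20% + SAA 3 to 6 they ran from 0.721 to 0.833 and from 0.77 to 0.889.

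Other genes associated with Kupffer cells were read from a list. Of 16 further Kupffer cell genes, casein restriction lowered 3 and raised 0, with a median difference of -0.11 against 0.02 for all genes, and called 5 without Cas-20% liver 5. The share called was 24.9% over all genes. Among those lowered, Nr1h3, the oxysterol receptor LXR alpha, differed by -0.28 on the log2 scale (SE 0.06, adjusted p = 0.00399), and Hmox1, which breaks down haem, by -0.62 (adjusted p = 0.0375), a call lost without Cas-20% liver 2 or 3 or Cas-5% liver 1, 2, 4 or 6 (adjusted p from 0.0526 to 0.0833) or with the GC slope as a covariate (-0.30, adjusted p = 0.222). Soy restriction raised 3 of the 16 and lowered 1, with a median of 0.10 against -0.01 for all genes, of which 17.0% were called. Slc40a1, the iron exporter ferroportin, rose from 1073 ± 274 to 1922 ± 113 (0.84, SE 0.13, adjusted p = 0.00147) and was the only one still called without livers 3 to 6 of Soy-20% + SAA (0.45, adjusted p = 0.0118). Marco, a scavenger receptor, ran from 15.5 to 47.9 in Soy-20% + SAA and from 62.6 to 669.7 in Soy-10% (2.35, SE 0.59, adjusted p = 0.0162), and without those livers it differed by 2.33 (adjusted p = 0.271). Without Soy-10% liver 6 the difference of Marco was 1.29 (adjusted p = 0.00695). Hpgd, which inactivates prostaglandins, rose (0.61, adjusted p = 0.0113) and Hmox1 fell (-0.51, adjusted p = 0.0407), neither call holding without livers 3 to 6 of Soy-20% + SAA. With the GC slope as a covariate Marco, Hpgd and Hmox1 lost their calls in soy restriction (adjusted p = 0.143, 0.175 and 0.511). Hmox1 also lost its call here without any 1 of the livers Soy-20% + SAA 3 to 6 or Soy-10% 1, 2, 3 and 5. Marco, Hmox1 and Hpgd were picked out after their values were seen. Nr1h3, Slc40a1 and Hmox1 are also made by hepatocytes.

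Partners of the members in complement, growth factor signalling and phagocytosis were read the same way, against 24.9% of all genes called in casein and 17.0% in soy restriction. C1qb and C1qc, which code for the other chains of C1q, had means of 591 ± 105 and 574 ± 88.7 in Cas-20% against 663 ± 67.8 and 567 ± 58.8 in Cas-5%, and neither passed the test there. Under soy restriction C1qc rose from 505 ± 24.9 to 641 ± 113 (0.34, SE 0.10, adjusted p = 0.0307, or 0.307 without livers 3 to 6, 0.154 with the GC slope as a covariate, and just past 0.05 without any 1 of livers 3, 4 and 5 of Soy-20% + SAA and 2 and 5 of Soy-10%), and C1qb differed by -0.12 (SE 0.13). Of 7 genes of the CSF1 and CSF2 axis, casein restriction raised 1, the CSF2 receptor chain Csf2ra, from 52.4 ± 15.6 to 76.0 ± 9.70, a call lost without liver 2 or 6 of either diet, and soy restriction called 0. Csf1, the ligand of Csf1r, had means of 72.2 ± 12.9 and 89.4 ± 13.04 in Cas-20% and Cas-5% and of 44.5 ± 22.4 and 69.9 ± 5.01 in Soy-20% + SAA and Soy-10%, with neither pair called. Csf2rb, the shared receptor chain, had means of 82.5 ± 15.5 and 65.1 ± 6.41 in the casein pair, not called. Of 18 pan-macrophage genes casein restriction lowered 1 and raised 0, and soy restriction called 0. The one was Mpeg1, the pore-forming perforin-2 of phagocytes, from 406 ± 144 to 233 ± 47.7 (-0.78, SE 0.19, adjusted p = 0.00604), and 2 were called without Cas-20% liver 2. With the GC slope as a covariate Mpeg1 differed by -0.57 and lost its call (adjusted p = 0.0517).

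Genes around class II were counted against the same shares of all genes, 24.9% and 17.0%. Of 22 genes for class II loading, transcription and co-stimulation 16 were tested. Casein restriction raised Rfxap, a subunit of RFX (0.38, SE 0.11, adjusted p = 0.0204), and lowered Ifi30, a lysosomal thiol reductase (-0.25, SE 0.08, adjusted p = 0.0347), with a median of 0.08 over the list. Rfxap lost its call without Cas-5% liver 5, and Ifi30 without Cas-20% liver 2, 4, 5 or 6 or Cas-5% liver 1, 2 or 4, and both lost it with the GC slope as a covariate (adjusted p = 0.0747 and 0.116). Soy restriction raised Lgmn, the lysosomal protease legumain (1.09, SE 0.33, adjusted p = 0.036), and lowered H2-DMa (-0.62, SE 0.14, adjusted p = 0.0095), with a median of 0.07, and without livers 3 to 6 of Soy-20% + SAA it called 0 of them. With the GC slope as a covariate Lgmn (0.37) and H2-DMa (-0.44) lost their calls (adjusted p = 0.347 and 0.175). Lgmn, which ran from 43.1 to 267 in Soy-20% + SAA and from 256 to 348 in Soy-10%, kept its call only without liver 1, 2 or 4 of Soy-20% + SAA among the 12 single omissions. Ciita averaged 7.26 counts a liver and was too low to test. Rfxank, a further RFX subunit, had means between 52.3 ± 8.31 in Soy-20% + SAA and 73.4 ± 12.8 in Cas-5%. Of 13 interferon-gamma response genes casein restriction raised 1 and lowered 0, namely Iigp1, an immunity-related GTPase, from 4821 ± 662 to 6200.0 ± 170, and soy restriction called 0. Of 11 MHC class I genes 4 fell and 0 rose in casein restriction, with a median of -0.28. These were H2-K1, a class I heavy chain (-0.38, SE 0.08, adjusted p = 0.00297), B2m, its light chain (-0.28, SE 0.09, adjusted p = 0.0303), Tapbp, which loads it (-0.33, SE 0.10, adjusted p = 0.0226), and Psmb9, an immunoproteasome subunit, from 416 ± 113 to 222 ± 48.9 (-0.89, SE 0.17, adjusted p = 0.000873). Tapbp lost its call without Cas-5% liver 4 and B2m without Cas-20% liver 4 or Cas-5% liver 1, 2 or 4, and both lost it with the GC slope of each library as a covariate. Soy restriction called 0 of the 11. Ifi30, H2-DMa and Tapbp were named after their values were seen.

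Other cell types that carry class II, or that neighbour Kupffer cells, were read from marker lists. The counts called below stand against 24.9% of all genes called in casein restriction and 17.0% in soy restriction. The 9 dendritic cell markers in the table summed to between 106 and 164 normalized counts a liver. Much of this sum was 1 gene, since Zbtb46 alone averaged 74.2 where the 9 together averaged 132. Only 2 of the 9 were high enough to test in either restriction and 0 were called. Flt3 averaged 3.25 and Xcr1 5.00 counts. No gene in the table had fewer than 90 reads over the 30 livers, so none could be at 0 in every liver. Cd209a, Ccl22, Cd79a, Cd8a, Cd8b1, Gzmb and Ncr1, also on the dendritic, B cell and T cell lists, were not in the table. The 9 B and plasma cell markers summed to between 202 and 825, and 1 of 6 tested fell in both restrictions, Ighm, the heavy chain of IgM. It went from 265 ± 110 to 68.4 ± 9.93 under casein restriction (-1.94, SE 0.24, adjusted p = 1.7e-05) and from 186 ± 70.4 to 81.2 ± 22.6 under soy restriction (-1.19, SE 0.25, adjusted p = 0.00695). The B cell marker Ms4a1, at a mean of 12.3 counts, was near the floor. The 10 T and NK cell markers summed to between 39.7 and 142, and of 3 tested in casein restriction Cd4 fell. Of 10 markers of recruited monocytes in the table casein restriction raised 1, Cd9, and soy restriction raised Cd9 and lowered Fn1, among 8 tested. Without livers 3 to 6 of Soy-20% + SAA the call on Fn1 was lost (-0.22, adjusted p = 0.179) and that on Cd9 held (0.66, adjusted p = 0.0486). Fn1 averaged 4910 and Cd9 239.9 normalized counts, while the others on this list ran from 5.77 (Trem2) to 144.7 (Plac8). Which liver cells made the Fn1 and Cd9 reads was not tested. Sinusoidal endothelial markers rose in 4 of 13 and 3 of 13 cases and stellate cell markers in 3 of 12 and 0 of 12, and the 3 endothelial calls of soy restriction were lost without livers 3 to 6. Without Cas-5% liver 2 or 4 the casein count of endothelial markers was 2. Of 5 red cell markers casein restriction lowered 4 and soy restriction called 0, the summed level going from a mean of 24380 ± 6835 to 16120 ± 3648 in casein restriction, and the count was 2 without Cas-20% liver 6 or Cas-5% liver 2 or 5. Cholangiocyte markers fell in 1 of 3 tested in each restriction, neutrophil markers were called in 0 of 2, and of 10 hepatocyte genes 5 were called in casein restriction and 2 in soy restriction.

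These levels also moved with the livers that stood out. In Cas-20% liver 2 the T and NK sum was 141.8, against 52.1 to 97.5 in the other livers of its diet, the B and plasma cell sum was 613.9, the pan-macrophage sum 4959 and the class I sum 73350, each the highest of the diet, while the dendritic sum was 115.5 within a range of 113.5 to 147.4. In Soy-20% liver 3 the pan-macrophage sum was 2450, the B and plasma cell sum 219.1 and the T and NK sum 41.2, each the lowest of the diet. In Soy-10% liver 6 the pan-macrophage sum was 5386, the highest of all 30 livers, with the dendritic sum at 115.9 and the T and NK sum at 53.2. The part of these cells in the members' values was not tested.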

How the data were processed

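Liver mRNA of 30 mice was sequenced with the Lexogen QuantSeq 3′ FWD kit, 1 library a mouse. Reads had been processed in the Bluebee QuantSeq pipeline. The submitters' processing notes name R 4.0.3, DESeq2 1.30 and the build GRCm38 (mm10), and the aligner and counter are not given in the sources used here. The authors deposited raw counts per gene and a normalized signal, the counts divided by DESeq2 size factors, without length scaling. Depth was 7694015 to 14565542 counts, and precision at these depths is limited by the spread between livers. QuantSeq reads the 3′ end of a transcript, so counts depend on that end being annotated.

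Livers were grouped by diet as labelled. In R 4.3.3, edgeR 4.0.16 kept genes by filterByExpr, scaled by TMM and ran the quasi-likelihood F test on raw counts of only the diets compared, two-sided, with Benjamini-Hochberg adjustment over all genes tested at 0.05. SE is the log2 fold change over the root of F, and 95% intervals use the fit's degrees of freedom. Means and SDs are of the normalized signal. DESeq2 1.42.0, RLE scaling, no filter, 1 fit of 30 livers, a replicate block, a GC slope covariate and leaving out libraries were alternatives. Correlations, tested by two-sided permutation, used numpy 2.4.6, pandas 2.3.3 and Python 3.11.15. Scripts were tested on simulated data. Symbols lacking for 1718 genes were filled for 1684 from GENCODE M21.

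The members and all gene lists were chosen with earlier results of these data known. Named were every member, the C1q partners, up to 3 genes of each list with the smallest p over 5 diets, defining markers at 0, and the 5 genes most like Clec4f and H2-Ab1 with a mean of at least 10 counts. Some genes that the rule selected are not reported here. Replicate numbers did not pair the livers: over 60 pairs with the same number, deviations from the diet mean correlated from -0.19 to 0.239, with a median of 0.009.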

Additional observations from a re-analysis of the deposited data

Results flagged for a closer look

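Of 140 diet groups of 6 livers checked for a value standing far from the other 5, 13 held one. Chance gives about 1 in 20 for independent groups. These groups share livers and hold genes that vary together, so the 2 rates cannot be compared. In Soy-10% liver 6 this held for Cd5l (1931 normalized counts), Adgre1 (312.5), C1qb (877.7), C1qc (851.1), Marco (669.7) and the summed pan-macrophage markers (5386), each above the rest of its diet. Marco stood high in Cas-20% liver 2 (174.2) and in Soy-20% liver 1 (354.0), and Ighm in Cas-5% liver 3 (87.31) and Soy-20% liver 1 (539.7). Summed levels stood high for the further Kupffer cell genes in Cas-20% liver 2 (10660), for stellate cell markers in Soy-20% + SAA liver 2 (6418) and for red cell markers in Soy-10% liver 2 (36650).

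The casein effect differed from the soy effect in an interaction test of 24 livers for 3 of the list genes named above, as log2 casein effect minus soy effect: Psmb9 -1.413 (adjusted p = 0.0201), B2m -0.533 (0.0142) and Hpgd -1.099 (0.0149). Without livers 3 to 6 of Soy-20% + SAA these were -0.61 (0.256), -0.37 (0.185) and -0.86 (0.202), and none was called.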

How the results depend on the processing

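The 0 calls among the 10 members held in all 9 comparisons under RLE scaling, no filter on low counts, the replicate block and the GC covariate. They also held without livers 3 to 6 of Soy-20% + SAA in each comparison that included that diet. DESeq2 called 1 member, Adgre1, in soy restriction and 1, again Adgre1, in Cas-20% against Soy-20% + SAA, and 1 fit of 30 livers called 1 in soy restriction. Leaving out single livers gave 0 to 3 member calls in soy restriction and 0 elsewhere. The replicate block, which pairs livers that share only a number, gave 0 member calls in each comparison. With it Ifi30 (adjusted p = 0.0682) and B2m (0.0709) lost their casein calls, while Slc40a1 gained one (0.0362). In 1 fit of 30 livers Ifi30 lost its casein call (0.077) and H2-DMa its soy call (0.0665). Hmox1 lost its call in 1 fit and with the block, in casein (0.0791 and 0.0504) and soy restriction (0.141 and 0.0509).

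Several small differences changed sign, and none of these was called either way. In casein restriction they were Adgre1 by DESeq2 (-0.0053), Cd74 (0.167), H2-Aa (0.101), H2-Ab1 (0.0836) and C1qc (0.036) with the GC covariate, and C1qc with the replicate block (0.0027). In soy restriction they were Vsig4 (-0.0296), Csf1r (0.178) and C1qb (0.201) with the GC covariate and Vsig4 (-0.0308), Csf1r (0.13) and C1qb (0.172) without livers 3 to 6. Over single livers left out, casein differences ran from -0.0819 to 0.0558 for Clec4f, -0.0356 to 0.148 for Vsig4, -0.0655 to 0.115 for Adgre1, -0.0044 to 0.228 for C1qa, -0.424 to 0.0529 for Cd74, -0.364 to 0.0429 for H2-Aa, -0.409 to 0.027 for H2-Ab1 and -0.0522 to 0.0667 for C1qc. Soy differences ran from -0.0419 to 0.176 for Cd5l, -0.0084 to 0.0693 for Vsig4 and -0.0004 to 0.11 for C1qa. The causes were not tested.

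Correlated pairs past the threshold numbered 38 of 45, 35 without centring and 34 without livers 3 to 6. All genes called in soy restriction fell from 2035 to 389 with the GC covariate and 317 without those livers. In Soy-20% against Soy-20% + SAA DESeq2 called 873 genes and 1 fit of 30 livers 1793, where edgeR called 1. In Cas-20% against Soy-20% + SAA edgeR called 291, DESeq2 1135, 1 fit 2331, the block 141, the GC covariate 5 and the fit without those livers 3. In soy restriction 1 fit called 3077. Counts of calls in the other gene lists moved by more than 1.5 times in 35 settings that kept to the whole design and held in 186, and moved in 74 omissions of 1 liver and held in 334. The wide class II intervals limit what 6 livers a diet could show.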
